A study of Mus musculus with 2 samples.

Results

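The chromatin of 10 genes of the N6-methyladenosine (m6A) pathway, Mettl3, Mettl14, Wtap, Rbm15, Zc3h13, Fto, Alkbh5, Ythdf2, Ythdf3 and Ythdc1, was compared between mouse livers with and without hepatic Mettl3. ATAC-seq had been carried out on 1 library of Mettl3 flox/flox livers and 1 library of Mettl3-HKO livers (Mettl3 flox/flox Alb-Cre+/-), each pooled from 4 mice of the C57BL/6 strain that were 8 weeks old and ate normal chow. Both groups carry the floxed Mettl3 alleles, in which exon 2 and exon 3 lie between loxP sites. In the Mettl3-HKO mice Cre is under the Alb promoter, and the paper describes the knockout as specific to hepatocytes. Whether other liver cells of these mice keep the gene was not tested here. The control mice carry no Cre. In ATAC-seq the transposase Tn5 inserts adaptors into accessible DNA, and the reads over a region measure how accessible it is in the mixed cells of the tissue. A region belonged to a gene when the deposited table named that gene as the one with the closest transcription start site (TSS), and 32 of the 69549 distinct regions did so. All 10 genes had at least 1 region. Of these regions, 9 were promoter regions, with their centre within 1 kb of the TSS, and 23 lay farther away.

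m6A is placed on nascent mRNA by a nuclear complex in which METTL3 is the catalytic subunit and METTL14 its RNA-binding partner. WTAP anchors the pair in nuclear speckles, RBM15 brings the complex to its target RNAs, and ZC3H13 joins WTAP to the rest of the complex. FTO and ALKBH5 can remove methyl groups from RNA. The YTH proteins bind m6A, YTHDC1 in the nucleus, and YTHDF2 and YTHDF3 in the cytoplasm, where YTHDF2 promotes mRNA decay. Most of these genes are expressed in many tissues.

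Positions are on GRCm38. The promoters of 3 of these genes are shown because the results turn on them. Mettl3 is the targeted gene, and Rbm15 had the most accessible promoter region of the set. Ythdc1 has a start in RefSeq that lies far from the one in the deposited table (the promoter shown precedes the start at 86804266). Each sequence runs 5′ to 3′ on the gene's strand from 240 bases before the RefSeq start to 10 bases into the transcript, and lies wholly inside an accessible region. Capitals mark matches, on either strand, to the motifs searched, which were CCAAT (bound by NF-Y), GGGCGG (the GC box), CCGGAAGT (bound by ETS factors), TATAAA (the TATA box) and the consensus sites of NRF1 and YY1.
Mettl3, chr14:52305115-52305364, minus strand: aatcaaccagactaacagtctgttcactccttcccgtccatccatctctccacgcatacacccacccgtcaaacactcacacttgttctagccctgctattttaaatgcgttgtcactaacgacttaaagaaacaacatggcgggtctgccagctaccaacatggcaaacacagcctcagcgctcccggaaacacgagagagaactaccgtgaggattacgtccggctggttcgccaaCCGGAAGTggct
Rbm15, chr3:107333280-107333529, minus strand: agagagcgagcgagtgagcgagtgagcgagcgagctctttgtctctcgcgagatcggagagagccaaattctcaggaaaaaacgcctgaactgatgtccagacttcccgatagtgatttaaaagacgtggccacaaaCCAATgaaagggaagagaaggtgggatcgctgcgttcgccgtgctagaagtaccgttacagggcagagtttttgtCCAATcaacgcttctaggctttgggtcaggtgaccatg
Ythdc1, chr5:86804026-86804275, plus strand: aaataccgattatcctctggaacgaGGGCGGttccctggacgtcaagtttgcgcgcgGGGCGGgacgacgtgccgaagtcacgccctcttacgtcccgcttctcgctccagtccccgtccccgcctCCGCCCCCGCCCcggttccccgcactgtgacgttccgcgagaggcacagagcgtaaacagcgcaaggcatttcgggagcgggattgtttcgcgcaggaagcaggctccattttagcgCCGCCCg
The Mettl3 match to the ETS motif starts 2 bases before the TSS and runs over it. The Rbm15 matches to CCAAT start 103 and 28 bases before its RefSeq start at 107333289. The distances given below for the Rbm15 regions are from the deposited TSS, at 107333101. Ythdc1 has 5 GC boxes in the stretch shown, of which 2 are adjacent, and none of the other motifs.

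RefSeq promoter windows of 300 bases (250 before the start and 50 after it) were matched for 8 of the 10 genes, as 11 windows. Their GC content ran from 52.0% to 80.3%, with a median of 60.7%, against a median of 52.7% over all 32851 windows of the genome. They held 17 to 48 CpG dinucleotides, with a median of 25, whereas the median over all windows was 7. A GC box was found in 6 of the 8 genes, and 35.7% of all windows hold one. CCAAT was found in 3 of the 8 genes, against 37.4% of all windows. The ETS motif was found in Mettl3 alone and is present in 3.89% of all windows. The TATA box, the NRF1 site and the YY1 site, found in 13.6%, 0.971% and 0.852% of all windows, had no match in any of the 8 genes. Of the 11 windows, 10 lay wholly inside an accessible region, and the window of Ythdf2 extended past the end of its region.

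The 2 libraries differed in how much of their sequence lay in accessible regions. The totals by which the counts were scaled, recovered from the deposited values, were 52826202 reads for Mettl3 flox/flox and 58038305 for Mettl3-HKO, and 31.7% and 22.3% of these lay on the regions. Accessibility is compared as the log2 ratio of the knockout to the control library, scaled by these totals. The median log2 ratio over all 69549 regions was -0.38, and that over the 14387 promoter regions was -0.56, with an interquartile range from -0.85 to -0.25. Since each group is a single library, no value has a replicate error, and a difference between genotypes cannot be told apart from one between the pools. The 95% intervals (exact, by Clopper-Pearson) were computed on the knockout's share of a region's counts, and they cover counting error only.

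Hepatocyte markers were accessible in both libraries. All 8 had a promoter region, and these summed to 81.1 RPM (reads normalised to the depth of the library) in Mettl3 flox/flox and 53.9 RPM in Mettl3-HKO. Of the 8 sinusoidal endothelial markers 7 had a promoter region, all but Pecam1, and their sum was 3.03 RPM in Mettl3 flox/flox and 7.01 RPM in Mettl3-HKO, while all 31 regions of these markers summed to 33.4 and 41.9 RPM. Promoter regions were found for 2 of 8 Kupffer cell markers (1.65 and 3.24 RPM; Clec4f, Csf1r, Adgre1, Marco, Timd4 and Vsig4 had none), although the sum over all 12 regions of these markers went the other way, from 18.5 to 12.5 RPM. The 3 of 8 stellate cell markers with a promoter region (Lrat, Des, Pdgfrb, Ngfr and Rgs5 had none) summed to 14.0 and 3.65 RPM, while 2 of the 3 had log2 ratios above 0. Promoter regions were found for 5 of 8 cholangiocyte markers (17.3 and 12.6 RPM; Krt19, Krt7 and Cftr had none). The part that the makeup of cells has in the results that follow was not tested.

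All promoter regions of the m6A genes were open in both libraries. A peak had been called in each library for 9 of 9 regions, against 83.3% of all promoter regions. Their lengths ran from 656 to 1416 bp around a median of 977 bp, compared with 764 bp over all promoter regions. Levels are compared between genes as fold enrichment, the reads per base of a region over the reads per base of the genome. In the Mettl3 flox/flox library the promoter of Rbm15 upstream of its TSS had the highest fold enrichment, at 103, followed by Ythdf3 at 98.6. The counting intervals of this pair overlapped. Wtap stood at 58.2, the second Rbm15 region at 55.0 and Mettl14 at 53.1, and each of these overlapped the next. Alkbh5 at 42.2 and Zc3h13 at 41.9 could not be separated, and the lowest were Mettl3 at 31.7 and Ythdf2 at 30.4, whose intervals overlapped as well. The median over all promoter regions was 25.8, so that every member lay above it.

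The order was nearly kept in the Mettl3-HKO library, at lower values. Rbm15 had a fold enrichment of 76.0 and Ythdf3 of 68.6, and here their intervals did not overlap. Wtap stood at 35.9 and Mettl14 at 34.5, again with overlapping intervals. Alkbh5 at 27.5, Zc3h13 at 27.4 and the second Rbm15 region at 27.3 formed a group that counting error did not separate, so that this Rbm15 region moved from place 5 to place 8 among the 11 start regions plotted. Ythdf2 had 22.3, and Mettl3 had the lowest value of the set, 20.01, although these neighbours overlapped. The median over all promoter regions was 16.7.

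**Figure D1:**
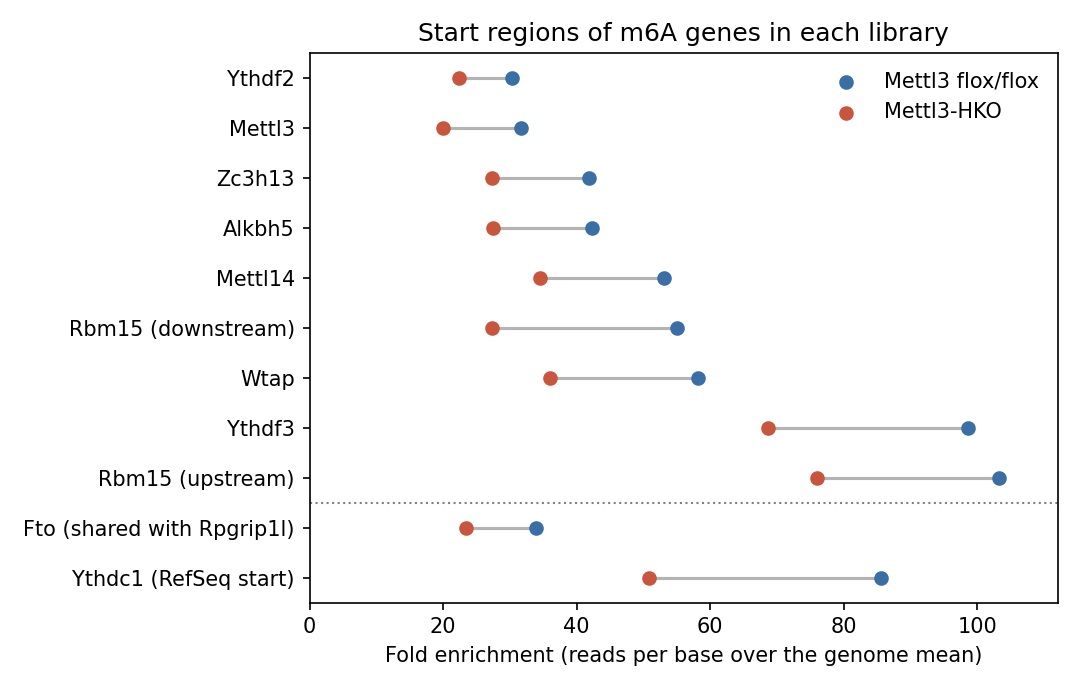
Fold enrichment of reads per base over the genome mean (x axis) at each start region of an m6A gene (y axis), in the Mettl3 flox/flox library (blue) and the Mettl3-HKO library (red), 1 pooled library each. Above the dotted line are the 9 promoter regions and below it the regions at the starts of Fto and Ythdc1, and each red point lies left of its blue point, from 20.01 against 31.7 for Mettl3 to 76.0 against 103 for Rbm15.

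Among the writers, the promoter of the targeted gene was open in the knockout livers. The Mettl3 region (chromosome 14, 52304549 to 52305472) spans the TSS, from upstream sequence through exon 1 into intron 1. It had 566 counts in Mettl3 flox/flox and 392 in Mettl3-HKO, a log2 ratio of -0.66 (95% interval -0.86 to -0.48). This ratio lay at the 40.1th percentile of all promoter regions, inside their interquartile range. No region was listed between its end and a region in the 3′ UTR, a stretch of 8656 bp that holds exon 2 and exon 3. The deleted exons are therefore not covered by any counted region, and the table does not check the genotype.

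Mettl14, Wtap and Zc3h13 had ratios close to that of Mettl3. The Mettl14 promoter region (chromosome 3, 123385441 to 123386385, over exon 1) had 969 counts in Mettl3 flox/flox and 692 in Mettl3-HKO, and its log2 ratio was -0.62 (95% interval -0.76 to -0.48). The Wtap region (chromosome 17, 12991719 to 12993002) had 1445 and 980 counts, a ratio of -0.70 (95% interval -0.81 to -0.58), and the Zc3h13 region (chromosome 14, 75283805 to 75284781) had 791 and 567, a ratio of -0.62 (95% interval -0.77 to -0.46). The intervals of these 3 subunits overlapped each other and that of Mettl3.

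Rbm15 was the member with 2 promoter regions, and they differed. The larger one (chromosome 3, 107332919 to 107334241), centred 478 bp upstream of the TSS, had 2641 counts in Mettl3 flox/flox and 2136 in Mettl3-HKO. Its log2 ratio of -0.44 (95% interval -0.52 to -0.36) was the highest among the 9 regions. The second, within the exon 689 bp downstream of the TSS (107332085 to 107332740), had 697 and 379 counts and a log2 ratio of -1.01 (95% interval -1.20 to -0.83), the lowest of the 9. The intervals of the pair did not overlap, and since both ratios come from the same libraries this difference does not depend on the scaling. The region in the exon was also the only member promoter that was at least 2-fold lower, a size that 16.3% of all promoter regions reached. It lay at the 15.6th percentile of all promoter regions, and it was no longer 2-fold lower under any other scaling.

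For the erasers, the promoter region of Alkbh5 (chromosome 11, 60537096 to 60538511) had 1156 counts in Mettl3 flox/flox and 827 in Mettl3-HKO, a log2 ratio of -0.62 (95% interval -0.75 to -0.49). Fto had no promoter region under its own name. Its start lies 296 bp from the start of Rpgrip1l, a ciliary gene transcribed in the opposite direction, and a single region (chromosome 8, 91312886 to 91313921) covers both starts. The table lists it for Rpgrip1l, whose TSS is 141 bp from the centre of the region, while that of Fto is 155 bp from it. The region had 678 counts in Mettl3 flox/flox and 514 in Mettl3-HKO, and its log2 ratio was -0.53 (95% interval -0.70 to -0.37), and reads there cannot be divided between the genes.

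Of the readers, Ythdf3 had one of the strongest promoter regions (chromosome 3, 16182881 to 16183934, centred in the 5′ UTR), with 2009 counts in Mettl3 flox/flox and 1536 in Mettl3-HKO, a log2 ratio of -0.52 (95% interval -0.62 to -0.43). The Ythdf2 region (chromosome 4, 132211620 to 132212492, centred in exon 1) had 512 and 413 counts and a ratio of -0.45 (95% interval -0.64 to -0.26). Ythdc1 had no promoter region by the deposited TSS at 86815655 on chromosome 5. The RefSeq gene begins 11675 bp upstream of it, at 86803980, and the RefSeq promoter sequence shown for this gene precedes a start slightly farther in, at 86804266. The only region listed for Ythdc1 (86803917 to 86804868) covers both positions. The region had 1575 counts in Mettl3 flox/flox and 1027 in Mettl3-HKO, a log2 ratio of -0.75 (95% interval -0.87 to -0.64). With fold enrichments of 85.6 and 50.8, it was the third most accessible start among those of the 10 genes.

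As a set, the member promoters lay close to promoters in general. Their median log2 ratio was -0.62, against -0.56 for all promoter regions and -0.64 for the 5342 promoter regions in the same range of mean signal, 8.42 to 43.4 RPM. In an exact binomial test (two-sided) of each region's counts given the totals, with p adjusted over all regions after Benjamini and Hochberg, all 9 member regions were lower in Mettl3-HKO, with adjusted p from 1.17e-30 to 8.46e-06. The same test called 71.7% of all promoter regions lower, and 95.5% of those in the same range of signal, so that the count of 9 is near the background. The test compares 2 libraries and not genotypes. None of the 9 was at least 2-fold higher, which 4.07% of all promoter regions were. Within the set, 28 of 36 pairs of regions had overlapping intervals. Of the 8 pairs that did not, 7 involved the Rbm15 region in the exon, which overlapped only with Mettl3, and the other was the upstream Rbm15 region with Wtap.

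**Figure D2:**
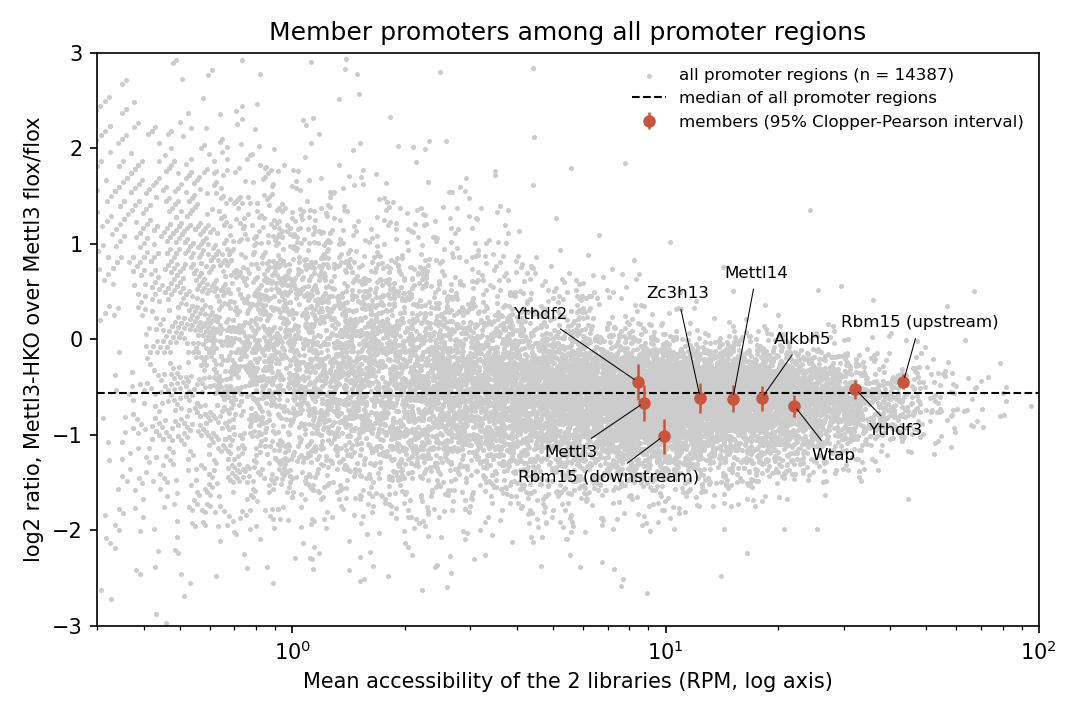
Log2 ratio of the knockout to the control library (y axis) against the mean RPM of both libraries (x axis, log scale) for all promoter regions (grey) and for the 9 member promoter regions (red, with 95% Clopper-Pearson intervals of the counts), 1 pooled library per group. The members lie between -0.44 and -1.01 around the median of all promoters (dashed, -0.56) on the scale of the library totals, and 6 of them lie above 0 after centring on the strongest 10% of promoters. A few grey points lie outside the axes.

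The sign of these ratios depended on how the libraries were scaled. With the median of all regions set to 0, all 9 member promoters stayed below 0, with a median of -0.24, and 7 were lower by the binomial test, against 44.2% of all promoter regions. When the counts were scaled to the reads on regions, 7 were below 0 and 2 above, and 2 were lower by the test, against 32.1% of all promoter regions. After centring on the strongest 10% of promoters, the median was 0.028, with 3 regions below 0 and 6 above. By the test, the Rbm15 region in the exon was then lower, and Ythdf3 and the upstream Rbm15 region were higher, whereas 22.0% of all promoter regions were lower and 33.8% higher. The differences among the members are the same in each case.

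**Figure D3:**
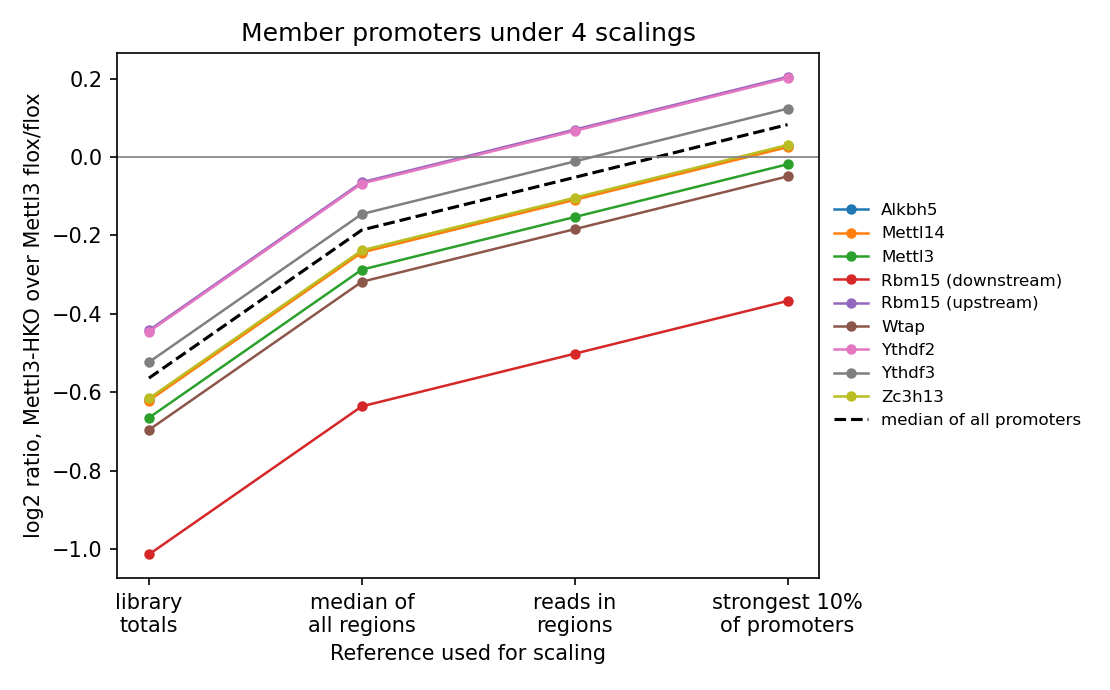
Log2 ratio of the knockout to the control library (y axis) of the 9 member promoter regions (coloured lines) and the median of all promoter regions (dashed) under 4 scalings (x axis). A scaling shifts every ratio by the same amount, and the members move from all below 0 with the library totals to 6 of 9 above 0 with the strongest 10% of promoters. The lines of Alkbh5, Mettl14 and Zc3h13 nearly coincide, as do those of Ythdf2 and the upstream Rbm15 region.

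The ratios of the regions outside the promoters covered a wider range. A peak had been called in both libraries for 10 of the 23, only in Mettl3-HKO for 7 and only in Mettl3 flox/flox for 6, compared with 56.1%, 24.9% and 19.1% of all regions outside promoters. A region with a peak in 1 library was listed only through that library. The 23 regions, which include the one over the RefSeq start of Ythdc1, had log2 ratios from -1.83 to 2.42, with a median of 0.12, against -0.27 for all 55162 regions outside promoters. The binomial test called 9 higher and 6 lower in Mettl3-HKO, the Ythdc1 region among the latter, and for 8 the adjusted p did not pass 0.05. Over all regions outside promoters 23.6% were higher and 41.5% lower by this test. At least 2-fold higher were 6 of the 23, all closest to Ythdf3, and 15.6% of all such regions were. Under the other scalings 8 (centred on all regions), 10 (reads in regions) and 10 (strongest 10% of promoters) were, with 1 region each of Fto and Rbm15 added in all of these and 2 of Mettl14 in the last 2, and the background was 23.5%, 26.7% and 30.2%. At least 2-fold lower were 2, in Zc3h13 and Fto, where the background was 18.8%, and under each other scaling only the one in Zc3h13 was. Without the regions of Ythdf3 the median was -0.24 and no region was 2-fold higher on the scale of the library totals.

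Of the 8 regions of Ythdf3 outside its promoter, 6 lie past the end of the gene, by 12.7 kb for the nearest and 249.6 kb for the far end of the last. The strongest (chromosome 3, 16366869 to 16367663), 184 kb from the TSS, had 164 counts in Mettl3 flox/flox and 434 in Mettl3-HKO, with a peak in both libraries and a log2 ratio of 1.26 (95% interval 1.01 to 1.54). The largest ratio, 2.42 (95% interval 1.42 to 3.97), was at 16456028 to 16456382, with 7 and 46 counts. Of the 6 regions, 5 were at least 2-fold higher. Of these 5, 4 had a peak only in Mettl3-HKO and so were listed only through the library in which they were high, and the strongest was the 1 that had a peak in both. The exception was the farthest, with 31 and 33 counts and a ratio of -0.05.

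Inside Ythdf3, the last intron held a region (16208581 to 16208812) with 10 and 32 counts and a log2 ratio of 1.45 (95% interval 0.48 to 2.73). In intron 3 a region with 22 and 13 counts had a ratio of -0.85, with an interval from -2.01 to 0.16 that includes 0. The region in the last intron, too, had a peak only in Mettl3-HKO, so that of the 6 regions of Ythdf3 that were 2-fold higher only the strongest, at 1.26 beside -0.52 for the promoter, had a peak in both libraries. Higher ratios are frequent among weak regions in these libraries. Of the 24819 regions outside promoters with fewer than 60 counts on average, 26.01% were at least 2-fold higher, against 7.14% of the stronger ones, and 5 of the 6 Ythdf3 regions that were 2-fold higher were below that count. Among all 3594 regions over 100 kb from a TSS, 19.6% were at least 2-fold higher. The promoter regions of the endothelial markers, 7 of 7, and of the Kupffer cell markers, 3 of 3, also had ratios above 0. So did 2 of 3 for the stellate list, 2 of 6 for the cholangiocyte list and 1 of 9 for the hepatocyte list. The sums over all regions went from 33.4 to 41.9 RPM for the endothelial list and from 18.5 to 12.5 RPM for the Kupffer cell list. The part of the makeup of cells in the Ythdf3 values was not tested.

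Zc3h13 had lower regions outside its promoter. There were 2 regions 218 bp apart near the 3′ end of its gene body, over exon 17 and in intron 17. The first (chromosome 14, 75337287 to 75337576) had 99 counts in Mettl3 flox/flox and 30 in Mettl3-HKO, with a peak only in the former, through which it was listed, and a log2 ratio of -1.83 (95% interval -2.50 to -1.26), at the 3.04th percentile of regions outside promoters. The second (75337795 to 75338340) had 404 and 227 counts and a ratio of -0.96 (95% interval -1.21 to -0.73). Both were below 0 after centring on all regions as well. The interval of the second, which had a peak in both libraries, overlapped that of the Zc3h13 promoter.

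Mettl14 had 3 regions outside its promoter. One in its own 3′ UTR (chromosome 3, 123371778 to 123372254) had 78 counts in Mettl3 flox/flox and 125 in Mettl3-HKO, a log2 ratio of 0.54 (95% interval 0.13 to 0.97). The others lie in introns of the neighbouring gene Sec24d, a component of the COPII coat. The strong one in intron 17 (123353596 to 123354381) had 492 and 531 counts and a ratio of -0.03, which did not pass the exact binomial test (adjusted p = 0.82). After centring on all regions its ratio was 0.35 and it was higher by the exact binomial test (adjusted p = 0.00029). The one in intron 10 had 61 and 101 counts and a ratio of 0.58 (95% interval 0.12 to 1.07). None of these intervals overlapped that of the Mettl14 promoter.

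Ythdf2 had 2 regions in its last intron. The stronger had 118 counts in Mettl3 flox/flox and 95 in Mettl3-HKO, a log2 ratio of -0.45, close to that of its promoter, and was lower by the exact binomial test (adjusted p = 0.042), a call that was lost after centring on all regions, where the ratio was -0.068 (adjusted p = 0.79). The weaker had 79 and 44 counts, a ratio of -0.97 (95% interval -1.55 to -0.43), with a peak only in Mettl3 flox/flox. Mettl3 itself had a region in its 3′ UTR, with 29 and 22 counts. Another region, 10.9 kb upstream of the Mettl3 TSS in Sall2, had 98 and 91 counts, and neither difference exceeded counting error. The single distal region of Rbm15 had 13 and 25 counts with a peak only in Mettl3-HKO, through which it was listed, and its interval from -0.21 to 1.90 included 0, although after centring on all regions it was higher by the exact binomial test (log2 ratio 1.13, adjusted p = 0.026).

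Fto is a large gene, and 4 regions in its first intron were closest to its TSS. The region at 91331467 to 91331856 was higher, with 58 counts in Mettl3 flox/flox and 119 in Mettl3-HKO and a log2 ratio of 0.89 (95% interval 0.44 to 1.38). The region at 91324336 to 91324648 was lower, with 63 and 32 counts and a ratio of -1.09 (95% interval -1.77 to -0.48), and it was listed only through its peak in Mettl3 flox/flox. In the other 2, counts of 35 and 49 and of 60 and 72 did not differ beyond counting error on the scale of the library totals, but after centring on all regions the former, which was listed only through its peak in Mettl3-HKO, was higher by the exact binomial test (log2 ratio 0.72, adjusted p = 0.047). A further 11 regions lie inside the Fto gene but are closest to the starts of gene models without a symbol. They were looked up after the values were seen. Over all 15 the median log2 ratio was 0.12, with 9 above 0 and 6 below, and 40.2% of all regions outside promoters were above 0. The region at 91392246 to 91392567 (-0.34) is itself a promoter region, 461 bp from the start of such a gene model. Those starting at 91487554 and 91495269, both above 0, were listed only through a peak in Mettl3-HKO. Those starting at 91380810 and 91487993, both below 0, were listed only through a peak in Mettl3 flox/flox. Of the 15, the one with the most counts, in intron 2 (91402989 to 91404661), had 1252 and 1295 counts, a ratio of -0.09 (95% interval -0.20 to 0.03). The largest ratio, 2.27 (95% interval 1.19 to 3.99), was at 91487554 to 91487753 in the last intron, with 6 and 36 counts. The largest gain among regions with over 100 counts in Mettl3 flox/flox was in intron 1 (91395552 to 91396044), from 165 to 446 counts, a ratio of 1.29 (95% interval 1.04 to 1.57).

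**Figure D4:**
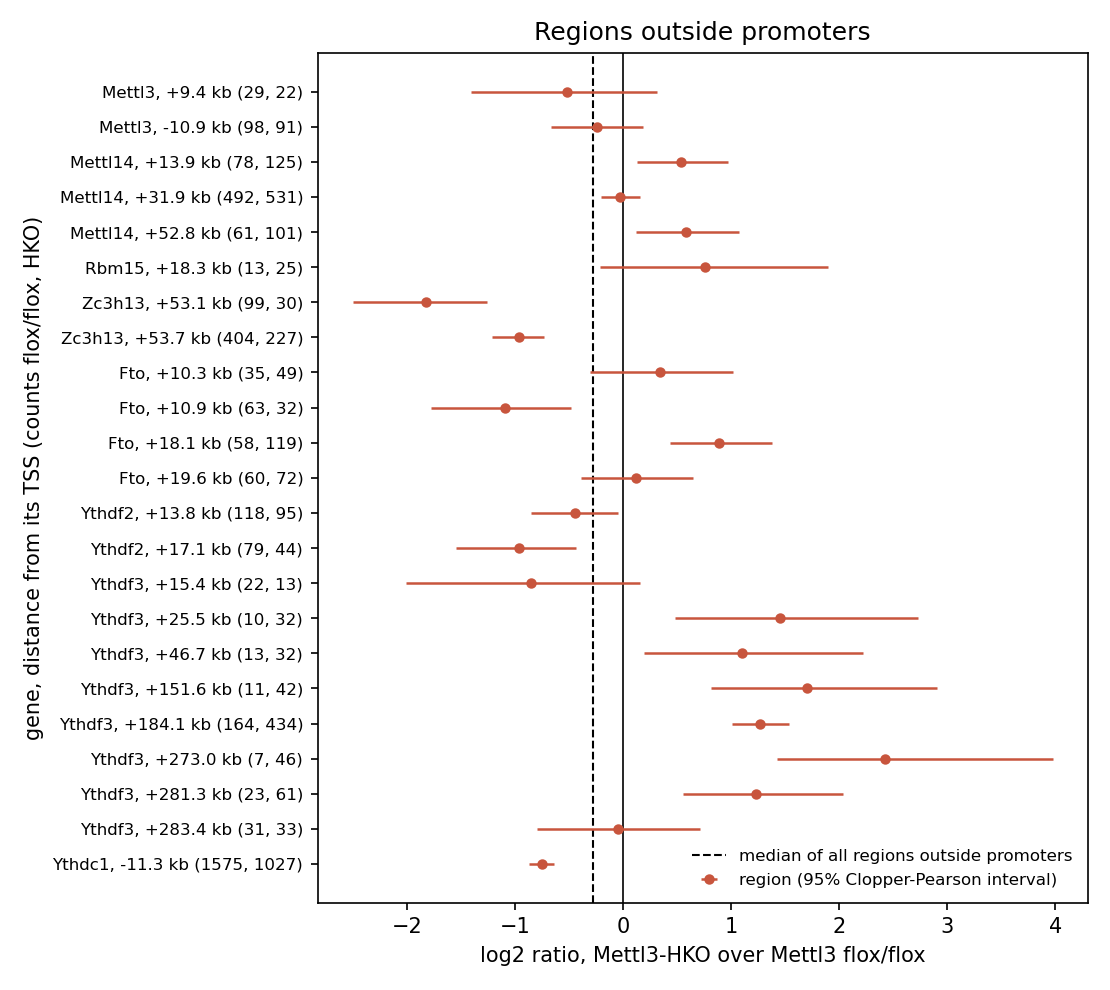
Log2 ratio of the knockout to the control library (x axis, with 95% Clopper-Pearson intervals of the counts) for the 23 member regions outside promoters, labelled by gene, distance from the TSS that the table gives and both counts. Regions past Ythdf3 lie mostly to the right, at up to 2.42, and those of Zc3h13 to the left, at -0.96 and -1.83, on the scale of the library totals.

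Other genes tied to m6A gave a wider view of the pathway. Of 22 such genes, 18 had a region under their name and 17 a promoter region, 20 regions in all (Mettl5, Trmt112, Igf2bp1 and Prrc2a had no region by name, and Igf2bp3 had none at its promoter). On the scale of the library totals, their median log2 ratio was -0.58, and 19 of the 20 were lower in Mettl3-HKO by the binomial test, none higher. Again 71.7% of all promoter regions were lower, and 95.5% of those in the range of signal of the member promoters, where most of the 20 lie. At least 2-fold lower were 6 of the 20 regions, compared with 16.3% of all promoter regions.

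Among the other parts of the writer complex, Cbll1, which encodes the E3 ligase HAKAI, had the largest drop, from 1221 counts to 489, a log2 ratio of -1.45 (95% interval -1.61 to -1.30). Virma, the scaffold that joins the complex to 3′ ends of mRNA, had 1196 counts and then 649, with a ratio of -1.02 (95% interval -1.16 to -0.88). These intervals lay below those of Mettl3, Mettl14, Wtap and Zc3h13. Rbm15b, a paralog of Rbm15, had a ratio of -0.33. The regions of the other methyltransferases stood at -0.52 for Mettl16, -0.87 for Mettl4 and -1.17 for Zcchc4, and the 3 regions of Pcif1 had -0.48, -1.29 and -0.56. The Pcif1 region at -1.29 was listed only through its peak in Mettl3 flox/flox.

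Among the remaining readers, Ythdf1 had a log2 ratio of -0.46 and Ythdc2 of -0.74. Beside its paralogs Ythdf2 at -0.45 and Ythdf3 at -0.52, Ythdf1 had an interval that overlapped both. The weak promoter regions of Igf2bp2, with 30 and 9 counts and with 60 and 30, had -1.77 and -1.11. The former was listed only through its peak in Mettl3 flox/flox. Of the RNA-binding proteins, Hnrnpa2b1 had -0.55, Hnrnpc -0.32, Rbmx -0.80, Fmr1 -0.61, Lrpprc -0.52 and the translation factor Eif3a -0.51. On the scale of the library totals, Elavl1 alone did not pass the test, with 1042 and 1140 counts and a ratio of -0.01 (95% interval -0.13 to 0.12). Centred on the median of all regions its ratio was 0.37, and Hnrnpc (0.06) and Rbm15b (0.04) were also above 0. The Elavl1 interval lay above those of all 9 member promoters, a difference that does not depend on the scaling.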

How the data were processed

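ATAC-seq of 1 Mettl3 flox/flox and 1 Mettl3-HKO pool was analysed. The authors trimmed adaptors with skewer, mapped reads to GRCm38 with BWA, left out mitochondrial and improperly paired reads and called peaks per library with MACS2, keeping duplicates. How reads were counted is not given in the sources used here. The authors deposited, for each merged region, the raw count, the RPM (count plus 1, normalised to a library total), the fold enrichment (a ratio to the genome mean) and whether a peak was called. Their own log2 ratio of the libraries was not used. Of 74821 rows, 5272 repeats were left out, and starts count from 1. Totals were recovered from RPM, and 1 read was added to each count before taking the log2 ratio of knockout to control. Symbols gave every member region. The median region had 85 counts in Mettl3 flox/flox and 81 in Mettl3-HKO.

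Counts were compared by the exact conditional binomial test with Benjamini-Hochberg adjustment over 69549 regions at 0.05. On simulated counts for these 69549 regions, with 200 regions changed 2-fold, it found 64.5% of the changed regions, and it also called 4 that were unchanged. The simulated counts held counting error only and no difference between pools. The 4 calls therefore give no rate of false calls for the real libraries. Intervals assume independent reads, which kept duplicates weaken. All 10 members and their regions are named, as are all genes of the wider list. Members, lists, motifs and tests were chosen with earlier results of these data known. Promoter sequences are from RefSeq (GRCm38.p6). Alternatives were other scalings, added reads, windows, a filter on counts, another fold and values per gene. Added after seeing the data were RefSeq starts and leaving out Ythdf3, and, for the number of regions outside promoters that were 2-fold higher, the centring and the filter. Tests ran in scipy 1.17.1 under Python 3.11.15, tables in pandas 2.3.3 with numpy 2.4.6, and figures in matplotlib 3.10.9.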

Additional observations from a re-analysis of the deposited data

How the results depend on the processing

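The median log2 ratio of the 9 member promoters, -0.62, became -0.24 with the median of all regions set to 0, -0.11 when scaled to the reads in regions and 0.028 after centring on the strongest 10% of promoters. The number lower by the binomial test went from 9 to 7, 2 and 1 in the same order (over all promoter regions from 71.7% to 44.2%, 32.1% and 22.0%), and the 1 region that was at least 2-fold lower to 0 in each (over all promoter regions from 16.3% to 5.0045%, 3.15% and 1.99%), since these scalings raise every log2 ratio by 0.38, 0.51 and 0.65. A window of 500 bp, which leaves out that region, also gave 0, and a fold of 1.5 gave 6, where 47.8% of all promoter regions passed. Single regions turned sign. Scaled to the reads in regions, Ythdf2 was at 0.067 and the upstream Rbm15 region at 0.070. With the strongest 10% of promoters, these were at 0.20 and 0.20, Ythdf3 at 0.12, Zc3h13 at 0.031, Alkbh5 at 0.028 and Mettl14 at 0.025. Centred on all regions, the Mettl3 region in Sall2 was at 0.14, the Mettl14 region in intron 17 of Sec24d at 0.35 and the farthest Ythdf3 region at 0.33. Added reads, a minimum of 20 counts on average, a window of 2000 bp, 1 value per gene and the RefSeq starts left the median of the member promoters between -0.62 and -0.61.

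Outside promoters the median of 0.12 turned to -0.24, and the 6 regions 2-fold higher to 0, without the regions of Ythdf3, whereas 8, 10 and 10 were 2-fold higher under the other scalings in the same order (over all regions outside promoters from 15.6% to 23.5%, 26.7% and 30.2%). Centring on all regions also ended the call of the stronger Ythdf2 region in the last intron and added calls of the Mettl14 region in intron 17 of Sec24d, the distal Rbm15 region and 1 Fto region. The median outside promoters was 0.50 after it and 0.63 when scaled to the reads in regions, and the 2 regions that were 2-fold lower became 1 under each other scaling (over all regions outside promoters from 18.8% to 8.65%, 6.42% and 4.69%). After centring, the median of the wider list moved from -0.58 to -0.21, and Elavl1, Hnrnpc and Rbm15b turned to above 0. Of its 6 promoter regions that were 2-fold lower, those of Cbll1 and the weaker one of Igf2bp2 remained. No paired analysis was possible because each group has 1 library. For regions with few counts, such as 7 against 46, depth limits the size of a ratio, and no alternative gives an error across mice.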
